A study of Mus musculus with 4 samples.

Results

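Transcripts of 7 genes of the NRF2 pathway were compared between fasted and re-fed mouse liver. The genes were Nfe2l2, Keap1, Nqo1, Gclc, Gclm, Txnrd1 and Srxn1, and they were represented by all gene probes that the array files name by these symbols. Each gene had 1 probe in 1 spot, so that 7 of 39429 probes were described, and isoforms of a gene were not resolved. All 7 probes passed the filter on dim probes, which left 19707 probes of 13015 named genes. The mice were C57BL/6J males, 8 to 12 weeks old. Fasted mice went without food for 24 h, while re-fed mice went through the same 24 h fast and then had food for 2 h, so that every mouse had been fasted and none was fed throughout. RNA of 4 fasted and 4 re-fed livers, each from an individual mouse, was hybridized to 4 two-colour arrays of oligonucleotide probes. There, 1 fasted and 1 re-fed liver, paired at random, carry the dyes Cy5 and Cy3 and bind the same spots, so that each array gave 1 log2 ratio per probe and counts as 1 replicate (n = 4). The fasted liver carried Cy5 on replicates 1 and 2 and Cy3 on replicates 3 and 4. All ratios below are fasted over re-fed, so that a negative value is a lower level in the fasted liver.

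NRF2, the transcription factor that Nfe2l2 encodes, is held in the cytoplasm by KEAP1, which brings it to a ubiquitin ligase for degradation. Oxidants and electrophiles modify cysteines of KEAP1, and NRF2 then enters the nucleus, pairs with a small MAF protein and binds antioxidant response elements in its target genes. In liver the pathway is known for inducing glutathione synthesis, the thioredoxin system and detoxification enzymes, and much of its control acts on the NRF2 protein, which arrays of RNA do not measure.

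The promoters were searched for the element because it is where NRF2 meets its targets. RefSeq promoter windows of the GRCm38.p6 assembly, from 250 bases before to 50 bases after a start site, were on hand for 6 of the 7 genes, in 8 windows, of which 3 belonged to Txnrd1. Gclc was not in the table used here. The core of the element was searched on both strands as TGACNNNGC, which 12.4% of 32851 mouse windows held, and in a second form as TGAGNNNGC, which 17.6% held. Either form was present in 27.8% of all windows and in 4 of the 8 windows here, 1 each of Nfe2l2, Gclm, Txnrd1 and Srxn1. No match was found in the windows of Keap1 and Nqo1. The windows of the 3 enzyme genes with a match are shown up to the base before the start site, with matches in capitals.
Gclm, chr3:122245307-122245556, plus strand: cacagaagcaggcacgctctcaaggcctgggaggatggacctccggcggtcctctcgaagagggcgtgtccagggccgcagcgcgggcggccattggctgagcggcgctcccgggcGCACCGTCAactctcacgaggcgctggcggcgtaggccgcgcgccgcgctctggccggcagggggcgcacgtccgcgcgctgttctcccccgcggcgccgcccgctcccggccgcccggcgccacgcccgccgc
Txnrd1, second window, chr10:82858956-82859205, plus strand: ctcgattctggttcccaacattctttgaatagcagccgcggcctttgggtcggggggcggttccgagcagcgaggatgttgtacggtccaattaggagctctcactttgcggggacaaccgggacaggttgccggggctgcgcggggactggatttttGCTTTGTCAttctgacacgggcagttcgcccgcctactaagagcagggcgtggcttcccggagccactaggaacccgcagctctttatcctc
Srxn1, chr2:152105274-152105523, plus strand: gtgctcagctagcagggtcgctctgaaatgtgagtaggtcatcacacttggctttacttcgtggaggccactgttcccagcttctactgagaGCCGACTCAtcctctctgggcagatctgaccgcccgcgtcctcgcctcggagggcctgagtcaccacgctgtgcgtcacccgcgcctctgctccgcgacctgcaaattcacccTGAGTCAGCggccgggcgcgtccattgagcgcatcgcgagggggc
In the Gclm window the match TGACGGTGC lay on the minus strand at -134 to -126 from the start site, where -1 is the base before it. Its first bases are also TGACG, the core of the cAMP response element bound by CREB, the factor the study was about, so that both searches shared letters there. The Txnrd1 match TGACAAAGC lay on the minus strand at -92 to -84. Srxn1 held TGAGTCGGC on the minus strand at -158 to -150 and TGAGTCAGC on the plus strand at -45 to -37, and a further match, TGACCTAGC, after the start site at 29 to 37. In the Nfe2l2 window, TGACTCCGC stood on the plus strand at -240 to -232. TGACG was found in 3 of the 8 windows, 1 each of Gclm, Txnrd1 and Srxn1, against 20.8% of all windows. These matches describe letters in a window and are no measurement of binding.

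None of the 7 genes was called different between fasted and re-fed liver. A call needed an adjusted p under 0.10 in limma, which tests all probes in 1 model, and a change of at least 1.5-fold, and 0 of 7 probes passed in either direction. Across all kept probes, 1.7% were called higher and 2.08% were called lower in fasted liver. The 7 mean log2 ratios were nevertheless all below 0, from -0.51 for Gclc to -0.15 for Nfe2l2, with a median of -0.28, while 50.2% of all kept probes were below 0 with a median of -0.001. Expressed the other way, the mean level in re-fed liver was between 1.11 and 1.42 times that in fasted liver. Unadjusted p-values in limma were 0.0115 for Txnrd1, 0.0265 for Srxn1 and 0.0463 for Gclc, and from 0.175 to 0.353 for the others. SAM, rebuilt as a second test with all 16 sign flips, also called 0 of 7. The genes were chosen with earlier results of these data known and were measured in the same livers, so their shared sign was given no test. In whole liver, fewer cells of a type and less RNA per cell cannot be told apart.

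**Figure D1:**
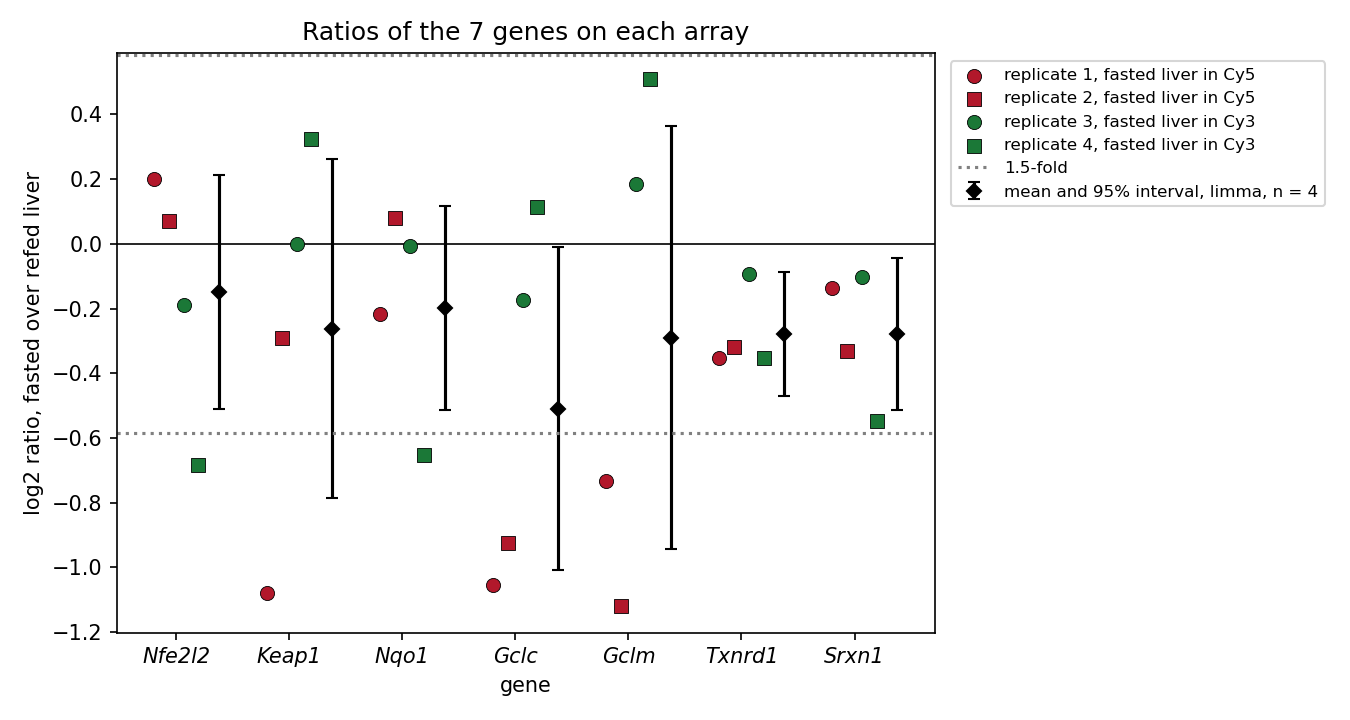
Log2 ratio of fasted over re-fed liver (vertical axis) for the 7 genes (horizontal axis), with a point for each of the 4 arrays coloured by the dye of the fasted liver and a black diamond with the mean and its 95% interval from limma. All 7 means lie below 0 and inside the dotted 1.5-fold lines, and the points of Gclc and Gclm separate by colour.

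Nfe2l2 encodes NRF2 itself. Its probe lies on chromosome 2 at 75513771 to 75513830 on the minus strand in the mm9 build of the array files, which do not say which part of the transcript a probe covers. The 4 ratios on replicates 1 to 4 were 0.20, 0.07, -0.19 and -0.68. The normalized log2 intensity of the probe ranged from 9.94 to 10.6 in the 4 fasted livers and from 10.4 to 10.6 in the 4 re-fed livers, so that the groups overlapped. The mean ratio was -0.15 ± 0.39 (SD, n = 4), with a 95% interval of -0.51 to 0.21 and an adjusted p of 0.640 in limma. The sign rested on replicate 4, without which the mean was 0.03.

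Keap1, the inhibitor that directs NRF2 to degradation, was probed on chromosome 9 between 21035292 and 21035732 on the minus strand. Its ratios were -1.08, -0.29, 0.0009 and 0.32. On replicate 1 the re-fed liver was the highest of all 8 livers, at a log2 intensity of 10.4, and the fasted liver the lowest, at 9.31. The other 3 re-fed livers lay between 9.53 and 9.78 and the other 3 fasted livers between 9.48 and 9.85, so that the groups overlapped. The mean was -0.26 ± 0.60 (SD, n = 4), with a 95% interval of -0.79 to 0.26 and an adjusted p of 0.563. Without replicate 1 the mean was 0.01.

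Gclc and Gclm encode the catalytic and the modifier subunit of glutamate-cysteine ligase, the rate-limiting enzyme of glutathione synthesis. The Gclc probe (chromosome 9, 77641296 to 77641355, plus strand) gave ratios of -1.05, -0.93, -0.17 and 0.11. Fasted livers ranged from 11.3 to 13.4 in log2 intensity and re-fed livers from 12.3 to 13.2, the fasted livers being the more variable group. The mean was -0.51 ± 0.57 (SD, n = 4), or 1.42 times more in re-fed liver, with a 95% interval of -1.01 to -0.01, an unadjusted p of 0.0463 and an adjusted p of 0.221 in limma. This was the lowest mean of the 7 genes and lay at the 3.18 percentile of all kept probes, and without replicate 1 it was -0.33.

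The Gclm probe (chromosome 3, between 121962174 and 121964809, plus strand) gave -0.73, -1.12, 0.18 and 0.51. Its re-fed livers were close to each other, at log2 intensities of 9.04 to 9.24, while 2 fasted livers stood below them at 8.47 and 8.08 and 2 above them at 9.42 and 9.55. The mean was -0.29 ± 0.76 (SD, n = 4), with a 95% interval of -0.94 to 0.36 and an adjusted p of 0.614. It depended on single arrays, being -0.01 without replicate 2, -0.14 without replicate 1, -0.45 without replicate 3 and -0.56 without replicate 4. Both subunits were thus low in the fasted livers of the same 2 arrays. The difference between their ratios, Gclc minus Gclm, was -0.32, 0.19, -0.36 and -0.40 on the 4 arrays.

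Nqo1 encodes a quinone reductase and is widely used as a readout of NRF2 activity. Its probe (chromosome 8, 109912440 to 109912499, minus strand) was the dimmest of the 7, with raw medians from 101 to 270.5 over local backgrounds of 20 to 35. The ratios were -0.22, 0.08, -0.01 and -0.65. Re-fed livers lay between 7.71 and 7.87 in log2 intensity, and 3 of the fasted livers between 7.61 and 7.79, with the fasted liver of replicate 4 apart at 7.22. The mean was -0.20 ± 0.33 (SD, n = 4; 95% interval -0.51 to 0.12; adjusted p of 0.450), and without replicate 4 it was -0.05.

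Txnrd1 encodes cytosolic thioredoxin reductase, which uses NADPH to keep thioredoxin reduced. The probe (chromosome 10, 82360230 to 82360289, plus strand) gave ratios of -0.35, -0.32, -0.09 and -0.35. All 4 were below 0, which held for 16.01% of all kept probes, and their SD of 0.13 was below the median SD of 0.18 over kept probes. Within each array the fasted liver was the lower, but across arrays the fasted livers (10.98 to 11.37) and re-fed livers (11.33 to 11.72) overlapped. The mean was -0.28 ± 0.13 (SD, n = 4), with a 95% interval of -0.47 to -0.09. Its adjusted p of 0.103 in limma was the lowest of the 7 and just above the threshold. The fold, 1.21 times more in re-fed liver, was below the limit in any case.

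Srxn1 encodes sulfiredoxin, which repairs overoxidized peroxiredoxins. Its probe (chromosome 2, 151937009 to 151937068, plus strand) gave ratios of -0.14, -0.33, -0.10 and -0.55, again all below 0. Fasted livers lay within 11.63 to 11.78 in log2 intensity and re-fed livers within 11.73 to 12.2, so that the groups overlapped. The mean was -0.28 ± 0.21 (SD, n = 4), with a 95% interval of -0.51 to -0.04, an unadjusted p of 0.0265 and an adjusted p of 0.161. In this fit, which has no dye term, the intervals of Nfe2l2, Nqo1, Txnrd1 and Srxn1 excluded a change of 1.5-fold in either direction. On the log2 scale 1.5-fold is 0.58. Those of Keap1, Gclc and Gclm reached past it on the side of lower levels in fasted liver.

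**Figure D2:**
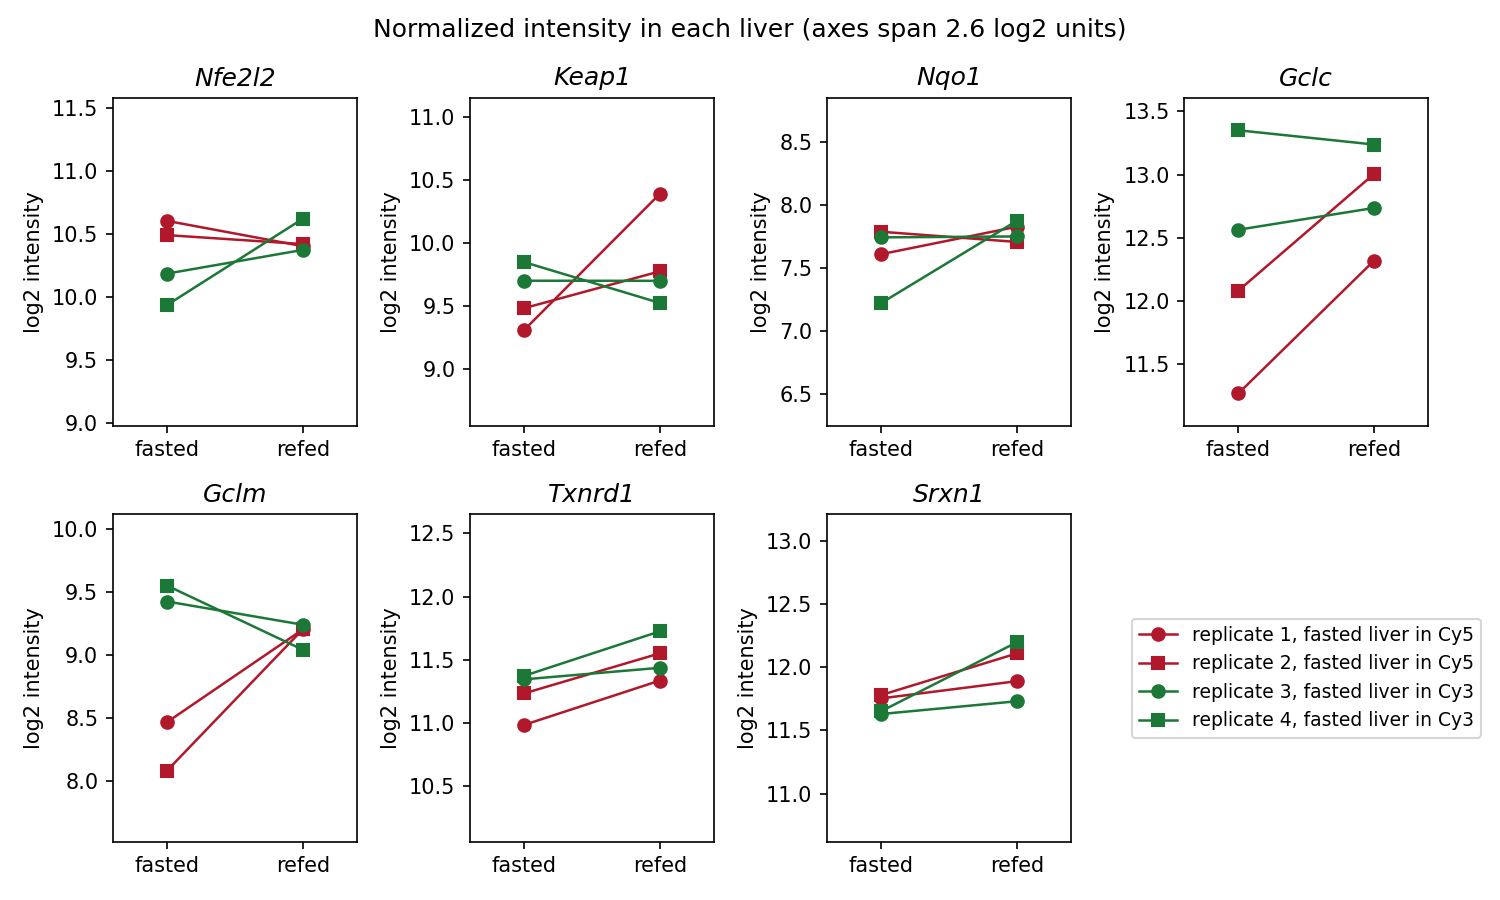
Normalized log2 intensity (vertical axis) of each gene in the fasted and re-fed liver of each array, joined by a line and coloured by the dye of the fasted liver; the panels have different origins and the same span, so heights are not compared between genes. Txnrd1 and Srxn1 slope upward to the re-fed liver on all 4 arrays, while the lines of Gclm cross between the dye orientations.

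The ratios of Gclc and Gclm followed the dye of the fasted liver. For Gclc the mean ratio was -0.99 where the fasted liver carried Cy5 and -0.03 where it carried Cy3, and for Gclm it was -0.93 and 0.35. Keap1 had means of -0.69 and 0.16, and Nfe2l2 ran the other way with 0.14 and -0.44. The means were closer for Txnrd1, at -0.33 and -0.22, and for Srxn1, at -0.23 and -0.32. A dye effect, the part of the ratio that stays with the dye when the samples are swapped, was estimated as a second term in limma. It was -0.64 (Cy5 over Cy3, log2) for Gclm with an adjusted p of 0.0303 and -0.48 for Gclc with an adjusted p of 0.0329. Thus 2 of 7 genes were brighter in Cy3 at an adjusted p under 0.10, against 7.45% of all kept probes, and no other of the 7 genes passed in either direction. With 2 arrays per orientation, a property of the dye and a property of the livers that shared it cannot be told apart.

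Setting the dye effect aside narrowed the intervals without moving the means, since the orientations were balanced. With the dye term, 4 of 7 genes were lower in fasted liver at an adjusted p under 0.10 with no fold limit, as were 13.9% of all kept probes. These were Gclc (adjusted p of 0.00837; 95% interval -0.69 to -0.33), Txnrd1 (0.0402), Gclm (0.0833) and Srxn1 (0.0872). None passed 1.5-fold, so the number of calls stayed at 0. This count without a fold limit was added after the data had been examined. The interval of Gclm with the dye term, -0.52 to -0.07, lay within 1.5-fold, while those of Gclc and Keap1 (-0.59 to 0.07) reached past it. When any 1 array was left out in turn, Gclc stayed under the threshold each time, with adjusted p-values of 0.0214 to 0.0402. Txnrd1 passed it in 3 of 4 cases and had 0.215 without replicate 4. Gclm passed it only without replicate 1, and Srxn1 only without replicate 3. Without replicate 2, Keap1 came under it at 0.0384, and without replicate 3, Nqo1 did at 0.0895.

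**Figure D3:**
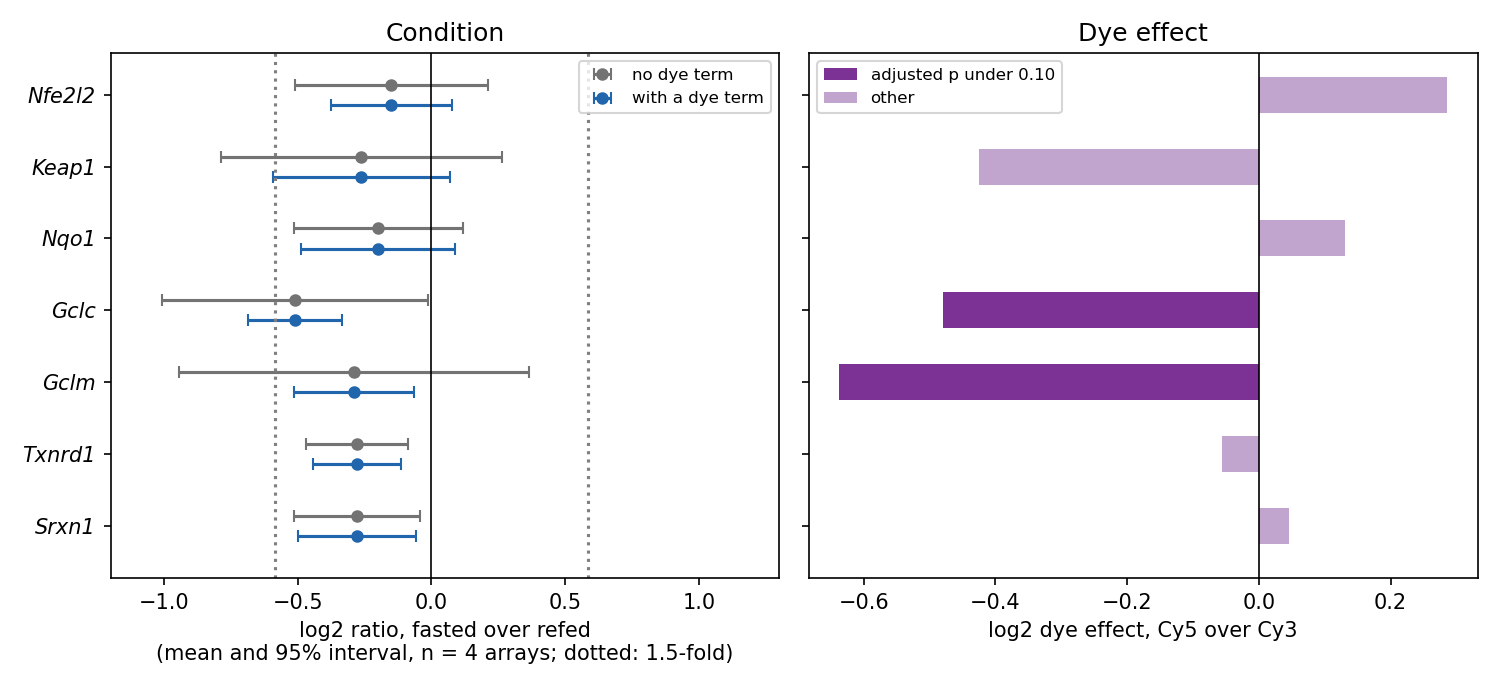
Left, mean log2 ratio of fasted over re-fed liver with its 95% interval for each gene (n = 4 arrays), from limma without (grey) and with (blue) a dye term, with dotted lines at 1.5-fold; right, log2 dye effect of Cy5 over Cy3, with dark bars at an adjusted p under 0.10. The means are the same in both fits, the intervals of Gclc and Gclm shrink, and their dye effects of -0.48 and -0.64 are the 2 dark bars.

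The wider pathway was described by 70 further genes in 8 groups, of which 67 had a kept probe and entered by the brightest one. Only Txnip was called, and it rose in fasted liver. Txnip encodes the thioredoxin-interacting protein, an inhibitor of thioredoxin that is also known for its control by glucose. Its ratios were 1.28, 1.27, 1.84 and 2.24, with a mean of 1.66 ± 0.47 (SD, n = 4) and an adjusted p of 0.0091 in limma, and a second, dimmer probe was also called at 0.94. The call was lost when normexp was fitted on all spots, at 0.96 with an adjusted p of 0.336. The other 66 genes were not called, and no gene was called lower by its brightest probe. Their median over all 67 was -0.03, with 39 below 0. Nfe2l3, Slc7a11 and Ggt1 had no probe above the filter.

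Regulators of NRF2, among them the small MAF genes, the competing repressors Bach1 and Bach2 and the ligase scaffold Cul3, had a median of 0.02 over 12 kept genes, within -0.20 to 0.19. The 10 kept genes of glutathione use had a median of 0.02, and none was beyond -0.16 or 0.15. Of the 11 genes of the thioredoxin and peroxiredoxin systems, Txnip apart, Txnrd3 had the largest ratio at 0.38 with an adjusted p of 0.0646, and mitochondrial Txnrd2 had 0.21. Both of these reductases had a mean on the other side of 0 from Txnrd1, and the difference was not tested. Thioredoxin itself, Txn1, had -0.25 with an adjusted p of 0.148.

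All 6 NADPH-supplying enzymes had a mean below 0, but within -0.16 to -0.01, and Idh1 and Taldo1 were split by dye in the same way as Gclc and Gclm. The 18 genes of detoxification and export had the lowest median of the 8 groups, -0.30, with 14 means below 0 and 0 calls. In this group the glutathione S-transferases Gstm2 (-0.30) and Gsta3 (-0.35) and the UDP-glucose dehydrogenase Ugdh (-0.38) had adjusted p-values of 0.0611, 0.094 and 0.0353 without reaching 1.5-fold. Gsta1 had the lowest mean, -0.72 ± 0.97 (SD, n = 4), of which replicate 2 gave -2.14 and the others -0.42 to 0.07. With the dye term and no fold limit, 10 of the 18 were lower at an adjusted p under 0.10, against 13.9% of all kept probes, and 1, the exporter Abcc2 at 0.20, was higher. Some genes of the Gsta and Gstm families are closely similar in sequence, and whether probes here bind more than 1 of them was not tested. The 2 probes of Gstm3 differed: the brighter gave -0.35 with an adjusted p of 0.109, and the dimmer gave -0.86 with an adjusted p of 0.0163 and would have been called.

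Hmox1, heme oxygenase, the most familiar stress-induced target of the pathway, had a mean of -0.30 with an adjusted p of 0.168 without and 0.0243 with the dye term, and a second, dimmer probe gave -0.04 with an adjusted p of 0.817. The ferritin genes Fth1 and Ftl1 had -0.02 and -0.07. Superoxide dismutases and catalase lay within 0.04 to 0.20. Osgin1, an oxidative stress-induced growth inhibitor, had the strongest split by dye, with ratios of -2.41, -2.21, 0.68 and 0.31. Its mean of -0.91 had an adjusted p of 0.422 without and 0.00262 with the dye term, where it met both limits of a call. Its dye effect was -1.40 with an adjusted p of 0.00325. Sesn2, a sestrin, had 0.45 with an adjusted p of 0.0977.

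**Figure D4:**
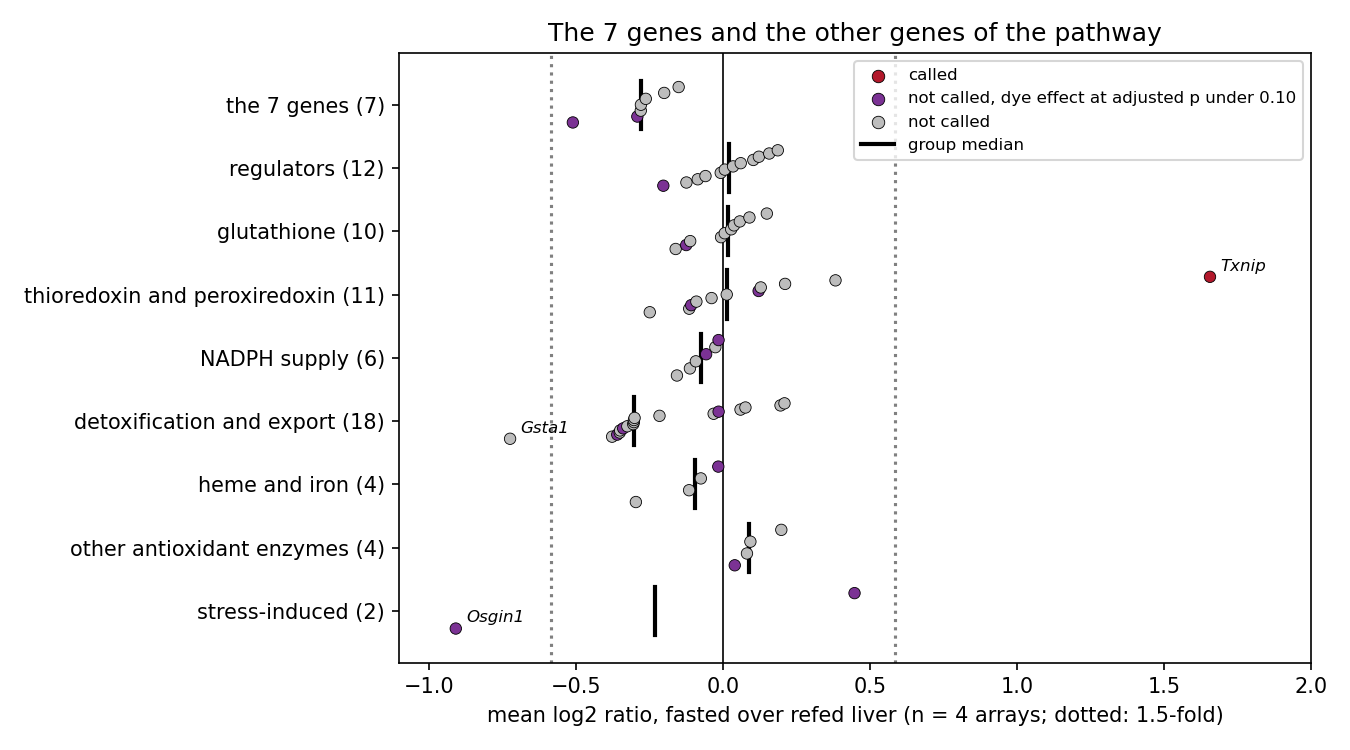
Mean log2 ratio of fasted over re-fed liver (horizontal axis, n = 4 arrays) of the 7 genes in the top row and of 67 other pathway genes by group, each point a gene, with black bars at group medians and dotted lines at 1.5-fold. Txnip at 1.66 is the only called gene, and the 7 genes and the 18 detoxification and export genes have medians of -0.28 and -0.30.

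The probes most like Txnrd1, the gene with the lowest adjusted p, over the 4 arrays were those of Cdk4, Card10 and Dusp7, with root mean square differences of 0.0441, 0.0443 and 0.0453 on the log2 scale. Of 16589 probes of other named genes compared, 83 lay within 0.1 of it.

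Markers of cell types were read on the same arrays. All 7 hepatocyte markers were kept, and the average of their log2 intensities was above 15.1 in every liver, though single markers lay lower. Of these markers Tat, an enzyme that fasting hormones induce, was called. Markers of pancreatic acinar cells had mean ratios of 0.05, 0.04, -3.26 and 0.06 over the 4 of 8 that were kept, the re-fed liver of replicate 3 being the highest of the 8 livers for each of the 4. The fasted liver of that array was also above the other fasted livers for Ctrb1 (9.41 against 7.88 to 8.21) and Clps (7.73 against 6.83 to 7.08). It was slightly above them for Cel (6.76 against 6.43 to 6.67) but below them for Amy2a5 (9.49 against 9.62 to 9.85). Without replicate 3 the mean ratios of the 7 genes were still below 0, with Txnrd1 at -0.34 (adjusted p of 0.174). Blood markers had mean ratios of 1.73, -0.27, 1.99 and 0.20, high on replicates 1 and 3. Kupffer cell markers had 0.53, -0.25, 0.65 and -0.22 over 4 kept genes, and were thus higher in the fasted liver on the same 2 arrays. On replicate 3, the cholangiocyte markers Krt19 and Sox9 had a mean of -0.73, with Krt19 at -1.19 and Sox9 at -0.27, and the stellate cell markers Lrat and Reln had -0.75 and -0.14. Hepatocyte markers without Tat had means of 0.25, 0.56, 0.07 and -0.03, with 4 of the 6 below 0 on replicate 4. The part of these cells and markers in the results was not tested. Adipose markers were not kept (0 of 3). Ratios of arrays with the same dye orientation correlated across probes at r of 0.66 to 0.75 and those of opposite orientation at 0.22 to 0.40, and probes are not independent replicates. Median gene spots had 40 to 75 units of intensity in the red and 44 to 96 in the green channel, over median local backgrounds of 25 to 35 and 20 to 33, and precision was limited by having 4 arrays.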

How the data were processed

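RNA of 4 fasted and 4 re-fed livers was measured on 4 arrays of 1 slide, scanned together; 200 ng per liver was labelled. The authors deposited scanner files of Agilent Feature Extraction 10.10.1.1 (per the file headers), whose unit is spot intensity with local background and quality flags, and a table of log2 ratios normalized by loess in limma, per the labels and the study's methods. The rows of that table match the row numbers of the scanner files (r of 0.98 to 0.99 with the ratios used here), and all its columns run as fasted over re-fed; how its background was handled is not given in the sources used here.

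Median intensities were read in R 4.3.3 with limma 3.58.1. Spots whose local background exceeded 3 times the array median were left out (55 in all), as were spots flagged as outliers (197 to 322 per array), none of them a spot of the 7 genes. Background was corrected by normexp with an offset of 50 and ratios by loess. Spots of a probe were averaged. A probe was kept if, in 1 or both conditions, the software marked its channel as well above background on each of the 4 arrays. Levels per liver were scaled between arrays (Aquantile). The 4 ratios, turned to fasted over re-fed, were tested with lmFit and eBayes, two-sided, p-values being adjusted by Benjamini-Hochberg across every kept probe, with intervals at the 95% level. The methods name SAM at the same limits.

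The members and lists were chosen with earlier results of these data known. Genes named are the 7 members, called pathway genes, examples with the largest changes of each group, and the 3 probes nearest to Txnrd1; Idh1, Taldo1, Hmox1, Fth1, Ftl1, Txnrd2, Txn1, Gstm3 and further examples were named after their values were seen. Probes were named through RefSeq accessions (26055) or symbols (4125). The steps were tested on simulated data. Alternatives covered background, source of values, normalization, filters, flags, dye, channels, test, thresholds, choice of probe and each replicate left out. With the arrays as the replicates, p-values measure the spread between 4 random pairs of livers.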

Additional observations from a re-analysis of the deposited data

Results flagged for a closer look

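Of 22 sets of 4 ratios examined (the 7 genes, 8 pathway group medians and 7 marker lists), 3 had 1 array far from the others, by the gap of that array to its nearest neighbour as a share of the whole range; chance alone gives about 1 such case in 20. For Txnrd1 the gap was 0.865 of the range, since replicate 3 lay at -0.09 and the other 3 arrays between -0.35 and -0.32. For the markers of endothelial cells the gap was 0.893, with replicate 3 at -0.16 against 0.26 to 0.31 on the others. There Lyve1 alone was below 0, at -1.26, and Stab2, Pecam1 and Kdr lay between 0.16 and 0.25. For the pancreatic acinar markers it was 0.995, with replicate 3 at -3.26. All 3 cases were replicate 3. Whether the difference on Txnrd1 has to do with the acinar markers was not tested.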

How the results depend on the processing

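The count of called genes among the 7 was 0 under every alternative that kept the 1.5-fold limit, and 4 lower with the dye term and no fold limit, an alternative chosen after seeing the data. Of 16 settings that recomputed each ratio, the sign held in all for Nqo1, Gclc, Gclm, Txnrd1 and Srxn1. The ratios ranged from -0.72 to -0.33 for Gclc and from -0.42 to -0.21 for Txnrd1, while that of Gclm reached -0.01 without replicate 2, and that of Nqo1 was -0.04 with normexp on all spots. The sign of Nfe2l2 turned with normexp on all spots (0.0094) and without replicate 4 (0.0278; -0.27 to 0.0278 over the arrays left out), and that of Keap1 without replicate 1 (0.0109; -0.46 to 0.0109). Under median centring, which moved the median of all probes to -0.06, Txnrd1 and Srxn1 had adjusted p-values of 0.0831 and 0.0909 in limma. The false discovery rates that SAM estimated from sign flips were 0.0423 for Txnrd1 and 0.0955 for Srxn1. With the mean of a gene's probes Txnrd1 had 0.0939. Leaving out 1 array gave adjusted p-values of 0.174 to 0.290 for Txnrd1. Pathway genes called higher numbered 0 with normexp on all spots (Txnip lost) and 2 with Agilent's processed signals (Btrc and Txnip). They numbered 3 of 67 with no fold limit, where 4.75% of all probes were higher. With the dye term and no fold limit they numbered 6, where 12.3% of all probes were higher. Pathway genes called lower numbered 1 with the dye term and 1 with separate channels and no replicate block (Osgin1 in both). With the mean of a gene's probes there was 1 (Gstm3). There were 3 of 67 with no fold limit, against 6.13% of all probes. With the dye term and no fold limit there were 14, against 13.9% of all probes. With the dye term and 1 array left out they ranged from 1 to 2. Across all probes, normexp on all spots called 5 higher and 15 lower, where a few spots of extreme local background enter its fit, Agilent's processed signals called 689 and 882, subtraction 549 and 714, median centring 230 and 635, no fold limit 936 and 1209, a limit of 2-fold 99 and 132, and leaving out an array 211 to 414 and 261 to 525. The ratios pair the livers of an array by construction; with separate channels and no replicate block, which drops this pairing, 0 of the 7 genes were called, with adjusted p-values of 0.173 to 0.524.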
